A study of Mus musculus with 13 samples.

Results

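Myeloperoxidase (Mpo), neutrophil elastase (Elane), proteinase 3 (Prtn3), cathepsin G (Ctsg), Ms4a3, cathepsin C (Ctsc), dermokine (Dmkn) and napsin A (Napsa) were followed in mouse bone marrow LK cells (lineage-negative and c-kit-positive, without Sca-1) that lacked Tifab, miR-146a or both. The 8 genes are 8 of the 24062 rows of the deposited expression table and 8 of the 11867 genes that were tested. They were taken by name, and they were selected on values already known, their log2 CPM in all 13 libraries. Their levels and the differences between groups are therefore given as a description. How many of the 8 passed limma's thresholds is printed for reference beside the share of all genes that did. Proteases of the primary granule give the set its name, but Mpo is a peroxidase, Ms4a3 a membrane protein and Dmkn a secreted epithelial protein.

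The study is about epistasis between TIFAB and miR-146a, which neighbour each other in the chromosomal deletion del(5q) of myelodysplastic syndrome. TIFAB and miR-146a are both known to dampen innate immune signalling through TRAF6. The WT group (3 libraries) was TIFAB+/+;miR146a+/+, the TIFAB_KO group (3) was TIFAB-/-;miR146a+/+, the miR-146a_KO group (3) was TIFAB+/+;miR146a-/-, and the dKO group (4) was TIFAB-/-;miR146a-/-. All 4 groups came from Boy/J recipients given 7.0 Gy and then 4.75 Gy of radiation 3 h later, and then syngeneic marrow, in mice 2 to 5 months old. The cells therefore came from transplanted marrow in every group, WT included, and both losses were in the whole germline of the donors and not in one cell type. The labels state 3 mice per group but leave it unsaid whether 1 library stands for 1 mouse. Since dKO has 4 libraries, at least 1 of them was not a separate mouse if that number holds for dKO, so n counts libraries and the spread between libraries may be partly technical.

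Primary, or azurophilic, granules form at the promyelocyte stage of neutrophil development, and their contents are made from RNA that is most abundant in granulocyte-monocyte progenitors. Elane, Prtn3 and Ctsg encode neutral serine proteases that kill microbes, and Ctsc encodes the lysosomal peptidase that activates them by removing a dipeptide. Mpo makes hypochlorous acid in the phagosome, and Ms4a3 is a marker of committed granulocyte-monocyte progenitors. In neutrophil precursors the genes for the serine proteases and Mpo are known to be driven by PU.1, an ETS family factor, by c-Myb, by RUNX1 with its partner CBFβ, and by C/EBP factors, while Gfi1 is known to repress Elane.

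The promoters of the granule genes are shown because the letters AGGAAGT, the core that PU.1 and other ETS factors bind, recur in them. RefSeq windows (GRCm38.p6) were matched for 7 of the 8 genes, all but Napsa, and cover 250 bases before to 50 bases after a start. AGGAAGT, on either strand, was in the windows of Mpo, Elane, Prtn3, Ctsg and Ctsc, which is 5 of 7 genes, against 9.35% of all 32851 promoter windows of the same length. AACGG, a c-Myb type core, was in those of Elane and Prtn3 (17.4% of all windows), TGTGGT, a RUNX type core, in that of Ctsg (16.8%), and TTNNGNAA, a C/EBP type pattern, in those of Ms4a3 and Dmkn (40.7%). These letters were chosen after the sequences had been read, the 4 patterns do not overlap in the sequences below, and a match is a run of letters and not a bound site. RefSeq and GENCODE place the starts differently: the first GENCODE base lies 203 bases before the RefSeq start in Mpo, 65 in Elane and 53 in Prtn3 (coding transcripts), and both agree in Ctsg and Ms4a3. Below, the part of each window before both starts is given 5′ to 3′ on the gene's strand, with AGGAAGT in capitals. Ms4a3 is included as the granulocyte-monocyte gene whose window did not hold it.
Mpo (chr11:87793534-87793580, plus strand): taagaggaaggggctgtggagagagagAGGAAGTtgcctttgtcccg
Elane (chr10:79886062-79886246, plus strand): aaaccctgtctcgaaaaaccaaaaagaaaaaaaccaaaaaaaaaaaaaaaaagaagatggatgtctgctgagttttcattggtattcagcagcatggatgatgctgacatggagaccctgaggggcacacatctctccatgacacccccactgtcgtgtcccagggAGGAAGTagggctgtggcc
Prtn3 (chr10:79879417-79879613, plus strand): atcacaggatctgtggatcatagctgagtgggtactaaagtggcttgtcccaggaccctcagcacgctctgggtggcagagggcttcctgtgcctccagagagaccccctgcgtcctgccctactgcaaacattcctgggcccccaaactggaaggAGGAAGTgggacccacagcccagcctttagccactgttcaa
Ctsg (chr14:56102575-56102824, minus strand): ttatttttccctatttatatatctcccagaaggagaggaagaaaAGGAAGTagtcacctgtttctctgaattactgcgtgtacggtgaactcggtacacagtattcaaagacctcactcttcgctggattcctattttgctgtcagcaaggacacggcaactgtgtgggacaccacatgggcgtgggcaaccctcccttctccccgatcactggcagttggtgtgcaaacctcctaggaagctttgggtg
Ms4a3 (chr19:11640852-11641101, minus strand): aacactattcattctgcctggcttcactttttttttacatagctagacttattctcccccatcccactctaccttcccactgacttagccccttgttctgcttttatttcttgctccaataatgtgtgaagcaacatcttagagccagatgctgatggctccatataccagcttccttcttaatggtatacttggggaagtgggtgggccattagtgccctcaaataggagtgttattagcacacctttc

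Counted from the RefSeq start, AGGAAGT began 223 bases upstream in Mpo, 84 in Elane, 94 in Prtn3 and 206 in Ctsg, and lay on the minus strand of the window, 151 bases upstream, in Ctsc. Elane and Prtn3 lie side by side, 3.073 kb apart, and shared the arrangement: in each, AGGAAGT was followed by AACGG, which began 50 bases before the RefSeq start in Elane and 55 in Prtn3. By the GENCODE starts, that AACGG lies inside the first exon of Elane and across the first base of the coding transcript of Prtn3, so it is not printed. The mature miR-146a-5p (chr11:43374435-43374456, minus strand), which the miR-146a_KO and dKO mice lack, is printed with its seed, bases 2 to 8, in capitals.
miR-146a-5p: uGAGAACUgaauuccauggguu
The DNA complement of that seed, AGTTCTC, was in the annotated 3′ UTR of none of the 8 genes, against 1374 of 10785 tested genes with an annotated 3′ UTR (12.7%). These 3′ UTRs are short, from 64 bases in Napsa to 320 in Dmkn, in all but Ctsc (2737 bases). The share over all genes was not matched for length, so little can be read from the absence of a match.

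In the mm10 build, with GENCODE M21 gene models, Mpo spans chr11:87793581-87804413 (plus strand), Prtn3 chr10:79874476-79883174 (plus) and Elane chr10:79886247-79888215 (plus). Ctsg spans chr14:56099881-56102574 (minus), Ms4a3 chr19:11629496-11640851 (minus), Ctsc chr7:88278085-88310888 (plus), Dmkn chr7:30763756-30781063 (plus) and Napsa chr7:44572380-44586862 (plus). Mpo overlaps Gm11505, Prtn3 overlaps Plppr3, Ctsc overlaps Gm26522 and Napsa overlaps Gm15396, and since no source used here gives the strand used in counting, reads of those partners cannot be told apart from theirs.

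Libraries held 7.83 to 12.8 M reads assigned to genes (median 9.75 M), with a read in 14455 to 16292 genes. Precursor ribosomal RNA (Rn45s) took 3.85% to 10.7% of reads, the most in TIFAB_KO replicate 3, and dKO replicate 3 stood furthest from the others (median correlation with the other libraries 0.968, against at most 0.980). Tifab checked the genotypes: its log2 CPM (reads of a gene as a share of the library, scaled to a common total) was 5.34, 5.63 and 5.31 in WT and 6.11, 6.15 and 6.01 in miR-146a_KO, but 3.17, 3.56 and 3.69 in TIFAB_KO and 2.64, 2.10, 1.72 and 3.46 in dKO. The row of Mir146 held 0 reads in all 13 libraries, so the loss of miR-146a could not be checked (3 reads would be 0.235 to 0.383 CPM). Of the sort, Kit was at 270 to 459 CPM and Ly6a, the gene of Sca-1, at 0.597 to 5.30 CPM. Cd3e was at 0.112 to 0.923 CPM, whereas Itgam (CD11b), also a common lineage antigen, was at 40.4 to 90.0 CPM. LK cells are a mixture of progenitors, so in these bulk samples fewer cells of a type and less RNA per cell cannot be told apart.

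The 8 genes ranged from one of the most abundant in these progenitors, Mpo, to one near the limit of detection, Dmkn. Mpo was the gene with the third highest count in 12 libraries and the 4th in WT replicate 3, and it gave 80.8% to 87.9% of the reads of the 8 genes. Per kilobase of the longest annotated transcript, the WT mean was 3265 ± 832 CPM per kb (SD, n = 3) for Mpo, 559.7 ± 300.3 for Elane, 507 ± 173 for Ctsg and 195 ± 74.8 for Prtn3. On the same scale Ms4a3 was at 44.96 ± 14.9, Napsa at 28.6 ± 2.91, Ctsc at 15.9 ± 1.58 and Dmkn at 0.336 ± 0.125 CPM per kb. Together the 8 genes took 0.767% to 1.33% of reads in WT, 1.56% to 1.74% in TIFAB_KO, 1.04% to 1.34% in miR-146a_KO and 0.851% to 1.30% in dKO. The lowest TIFAB_KO share therefore lay above the highest share of every other group.

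**Figure D1:**
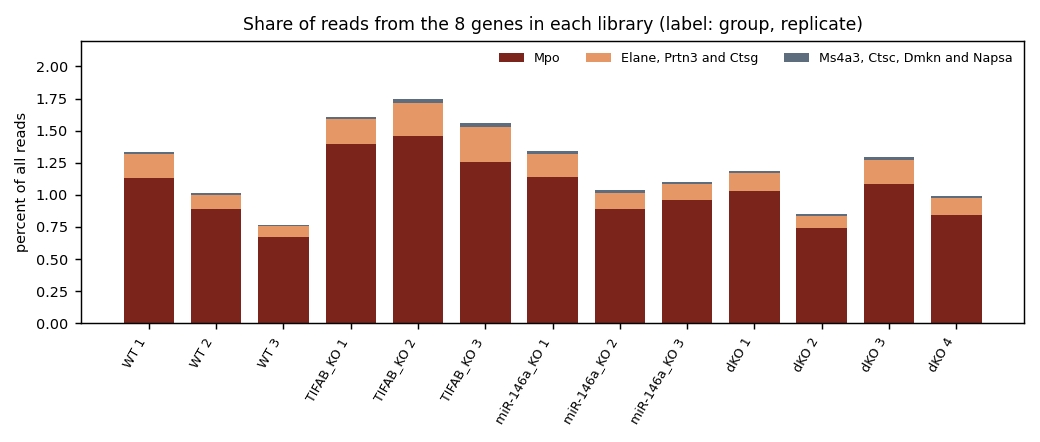
Percent of all reads (y axis) that came from the 8 genes in each of the 13 libraries (x axis, group and replicate), stacked as Mpo, the 3 serine proteases, and the other 4 genes. The TIFAB_KO bars reach 1.56% to 1.74%, above every other library, and the lowest bar is WT replicate 3 at 0.767%.

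Mpo, which makes the peroxidase, had log2 CPM values of 13.46, 13.13 and 12.71 in WT, 13.77, 13.83 and 13.62 in the TIFAB_KO libraries, 13.48, 13.12 and 13.23 in those of miR-146a_KO, and 13.33, 12.86, 13.40 and 13.04 in those of dKO. All 3 TIFAB_KO libraries lay above the other 10, and the other groups overlapped each other. The TIFAB_KO mean was 0.64 ± 0.23 (SE) above WT on the log2 scale, a 1.56-fold difference, and the dKO mean was 0.060 ± 0.22 above WT. By order of the group means, TIFAB_KO was followed by miR-146a_KO, dKO and WT.

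Among the serine proteases, Elane had log2 CPM values of 9.79, 8.79 and 8.35 in WT, 9.81, 10.30 and 10.10 in the TIFAB_KO libraries, 9.63, 9.03 and 9.01 in those of miR-146a_KO, and 9.45, 8.79, 9.98 and 9.21 in those of dKO. TIFAB_KO lay above WT and miR-146a_KO, but WT replicate 1 came within a small step of the lowest TIFAB_KO library and dKO replicate 3 lay inside the TIFAB_KO range. The TIFAB_KO mean was 1.10 ± 0.31 above WT (2.14-fold), and it was 0.78 above WT without WT replicate 3 and 1.504 without WT replicate 1.

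Prtn3, the nearest neighbour of Elane, had 8.13, 7.56 and 7.01 in WT, 8.21, 8.82 and 8.996 in the TIFAB_KO libraries, 8.29, 7.74 and 7.88 in those of miR-146a_KO, and 7.54, 7.07, 8.10 and 7.65 in those of dKO (log2 CPM). TIFAB_KO lay above WT and above dKO without overlap, and miR-146a_KO replicate 1 reached into the TIFAB_KO range. Its mean in TIFAB_KO was 1.11 ± 0.27 above WT (2.16-fold) and the dKO mean was 1.09 ± 0.25 below TIFAB_KO (difference -1.09, 2.12-fold lower), while dKO and WT differed by 0.022 ± 0.25.

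Ctsg, which is on another chromosome beside granzyme and mast cell protease genes, had 9.46, 8.82 and 8.53 in WT, 9.46, 9.85 and 10.12 in the TIFAB_KO libraries, 9.43, 9.06 and 8.97 in those of miR-146a_KO, and 8.98, 8.30, 9.17 and 8.98 in those of dKO (log2 CPM). The lowest TIFAB_KO library (9.456) and the highest WT library (9.455) differed only in the third decimal, so the absence of overlap rests on that step. The mean in TIFAB_KO was 0.88 ± 0.24 above WT (1.83-fold), and dKO minus TIFAB_KO was -0.95 ± 0.23 (1.93-fold lower), with all dKO libraries below all TIFAB_KO libraries.

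Ms4a3 had 5.94, 5.43 and 4.98 in WT, 6.04, 6.95 and 7.00 in the TIFAB_KO libraries, 6.13, 6.25 and 5.88 in those of miR-146a_KO, and 5.80, 5.95, 6.71 and 5.41 in those of dKO (log2 CPM). TIFAB_KO lay above WT, but its replicate 1 was below 2 of the 3 miR-146a_KO libraries, and dKO replicate 3 lay inside its range. The TIFAB_KO mean was 1.21 ± 0.30 above WT (2.32-fold), and the miR-146a_KO mean was 0.63 ± 0.30 above WT (1.55-fold), with the WT and miR-146a_KO libraries overlapping.

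Ctsc, the activating peptidase, departed from the pattern of its substrates. Its log2 CPM was 5.499, 5.75 and 5.76 in WT, 5.97, 6.03 and 5.95 in the TIFAB_KO libraries, 6.19, 6.38 and 5.96 in those of miR-146a_KO, and 6.13, 6.005, 6.68 and 5.83 in those of dKO. All 10 knockout libraries lay above all 3 WT libraries, which held for Ctsc alone among the 8 genes and for 0.573% of the genes tested. The TIFAB_KO mean was 0.31 ± 0.19 above WT, the miR-146a_KO mean 0.51 ± 0.19 and the dKO mean 0.49 ± 0.18, and without dKO replicate 3, its highest library, the dKO difference was 0.32. These 3 differences share the WT libraries, and WT had the lowest value of the 4 group means.

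Dmkn is known from the skin and was near the limit of detection here, with 4 to 9 reads per library in WT and 4 to 13 in miR-146a_KO. It had log2 CPM values of -0.34, -0.047 and -1.12 in WT, 1.61, 1.76 and 1.16 in the TIFAB_KO libraries, -0.98, 0.36 and -0.80 in those of miR-146a_KO, and 0.70, 1.12, 2.19 and -0.47 in those of dKO. TIFAB_KO lay above WT and miR-146a_KO, and dKO spanned most of the range. Dmkn passed the filter of a mean of at least 0 log2 CPM only through TIFAB_KO and dKO, so it had to differ between groups to be among the genes tested. The TIFAB_KO mean was 2.01 ± 0.64 above WT on the deposited scale, which adds 0.5 reads to each count, and the difference was 1.18 on the log2(CPM + 1) scale. In dKO minus miR-146a_KO the difference was 1.36 ± 0.60, and it was 0.93 without dKO replicate 3 and 1.81 without dKO replicate 4.

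Napsa, an aspartic protease known from lung and kidney, had 5.54, 5.59 and 5.31 in WT, 6.32, 6.02 and 6.26 in the TIFAB_KO libraries, 5.99, 5.80 and 5.77 in those of miR-146a_KO, and 5.83, 5.17, 5.70 and 5.23 in those of dKO (log2 CPM). TIFAB_KO lay above all 10 other libraries, and miR-146a_KO lay between TIFAB_KO and WT without touching either. Its TIFAB_KO mean was 0.72 ± 0.19 above WT (1.65-fold), the miR-146a_KO mean was 0.38 ± 0.19 above WT, and dKO minus TIFAB_KO was -0.72 ± 0.17.

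**Figure D2:**
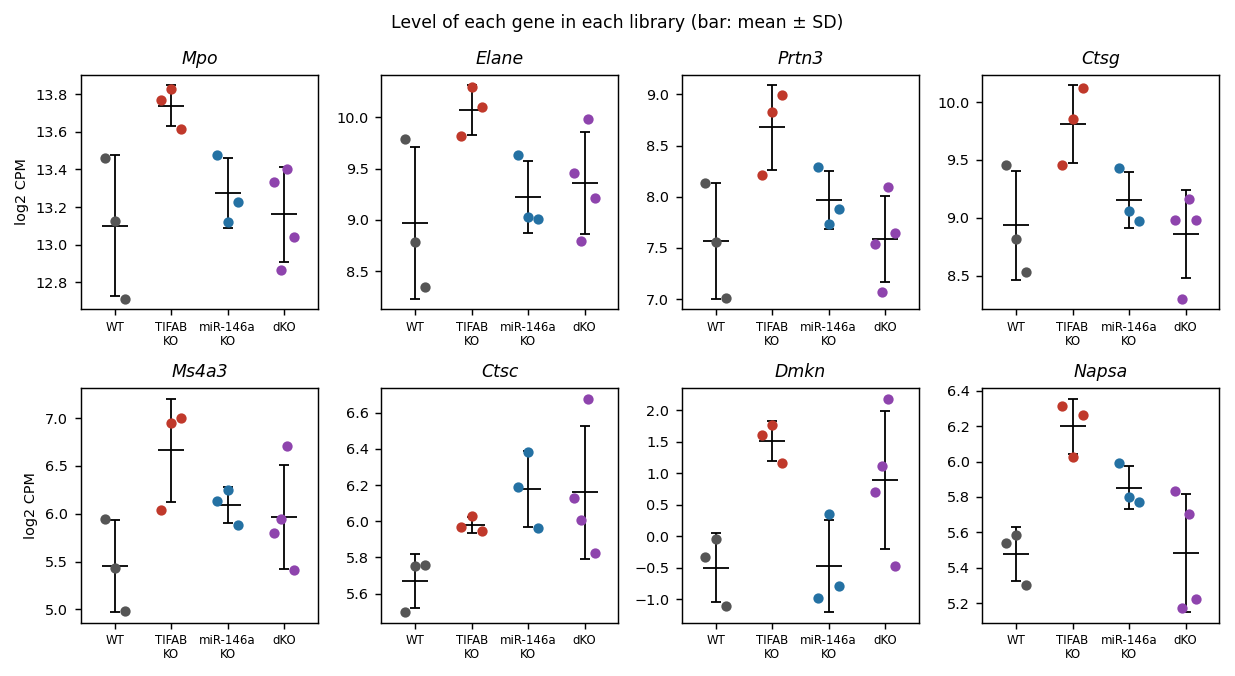
Log2 CPM (y axis, a separate scale per panel) of each of the 8 genes in every library, by group (x axis). Points are libraries and bars are the group mean ± SD; in all 8 panels the 3 TIFAB_KO points lie above the 3 WT points, and Dmkn has the widest dKO range, from -0.47 to 2.19.

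Loss of Tifab with miR-146a present was the comparison in which the 8 genes stood furthest from WT. TIFAB_KO lay above WT without overlap for 8 of 8 genes (background 5.21% of genes tested for this direction), and the median of the 8 differences was 0.99 on the log2 scale, beside -0.014 for all genes tested. By limma's moderated test with Benjamini-Hochberg adjustment over 11867 genes, 0 of the 8 passed an adjusted p of 0.05 (background 0.0169%, 2 genes), 7 of 8 had an unadjusted p under 0.05 (background 5.11%), and 0 passed with limma voom weights. Since the genes were picked with these libraries known, nothing is read from these counts, here or in the comparisons that follow. WT replicate 3 decided part of the size: it had the lowest value of all 13 libraries for 5 of the 8 genes and one of the 3 lowest for all 8. The median difference was 0.73 without it and 1.26 without WT replicate 1, and leaving out TIFAB_KO replicate 1 brought Prtn3 and Ms4a3 past the adjusted threshold among 44 genes.

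Tifab loss on a miR-146a-deficient background is the same change in other libraries, dKO against miR-146a_KO. There 0 of 8 genes were without overlap (background 1.61% higher, 2.12% lower), 2 of 8 differences were above 0 and the median was -0.12, beside -0.0092 for all genes tested. For Elane the values were 1.10 in TIFAB_KO against WT and 0.14 ± 0.29 in dKO against miR-146a_KO, for Prtn3 1.11 and -0.38 ± 0.25, for Ctsg 0.88 and -0.29 ± 0.23. For Ms4a3 they were 1.21 and -0.12 ± 0.28, and for Mpo 0.64 and -0.11 ± 0.22. Dmkn was the gene with a large positive value in both, 2.01 and 1.36. In limma's test 0 of 8 passed the adjusted threshold (background 0.0506%), 2 of 8 had an unadjusted p under 0.05, Dmkn higher and Napsa lower (background 1.93%), and 0 passed with voom weights.

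The interaction (dKO plus WT, minus both single knockouts) measures how far the double loss departs from the sum of the single losses. It was below 0 for 8 of 8 genes, from -0.33 ± 0.26 for Ctsc to -1.49 ± 0.37 for Prtn3, with -1.33 ± 0.41 for Ms4a3, -1.17 ± 0.33 for Ctsg, -1.09 ± 0.25 for Napsa, -0.96 ± 0.42 for Elane, -0.75 ± 0.32 for Mpo and -0.65 ± 0.88 for Dmkn. The median was -1.03, and it became -0.81 on leaving out WT replicate 3 and -1.25 on leaving out WT replicate 1. No gene of the 11867 passed the adjusted threshold of limma's test of the interaction (background 0%), and 6 of the 8 had an unadjusted p under 0.05 (background 4.23%), with 0 past the adjusted threshold with voom weights. For Dmkn the SE exceeded the value, and without dKO replicate 4 the value was -0.20.

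**Figure D3:**
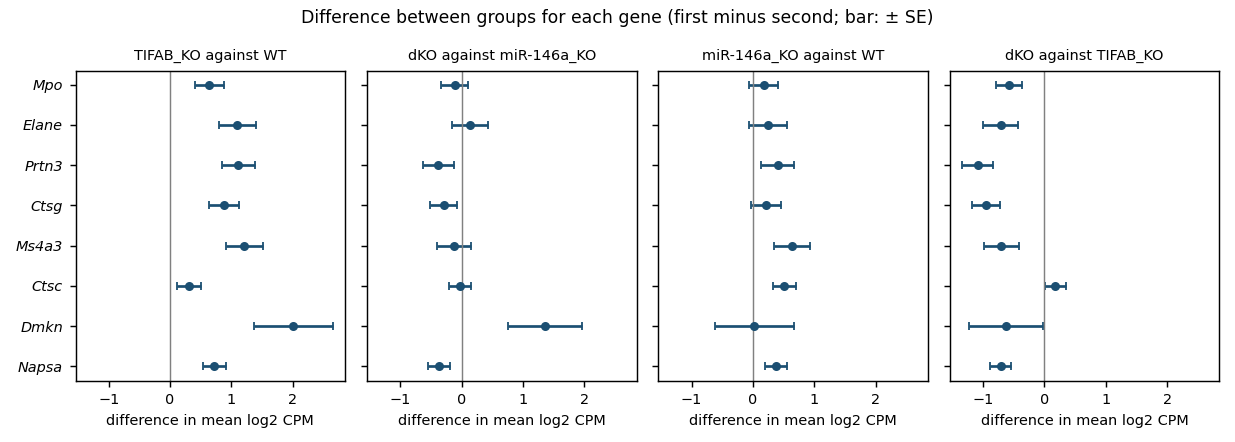
Difference in mean log2 CPM between groups (x axis, first group minus second, bars ± SE) for each of the 8 genes (y axis) in 4 comparisons. The 8 points lie right of 0 in TIFAB_KO against WT, 6 of 8 lie left of it in dKO against miR-146a_KO, and 7 of 8 lie left of it in dKO against TIFAB_KO.

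With both losses, values lay below those of the Tifab loss alone for 7 of the 8 genes. In dKO against TIFAB_KO, which shares TIFAB_KO with the first comparison, Mpo, Prtn3, Ctsg and Napsa were lower in every dKO library (4 of 8, background 3.84%), and the median was -0.71, beside 0.092 for all genes tested. The differences were -0.58 ± 0.22 for Mpo, -0.71 ± 0.29 for Elane and -0.70 ± 0.28 for Ms4a3, while Ctsc was at 0.18 ± 0.18. With limma 0 of 8 passed the adjusted threshold (background 0.0337%), 6 of 8 had an unadjusted p under 0.05, all lower (background 18.5%), and 0 passed with voom weights. Without dKO replicate 4, Prtn3 and Ctsg passed the adjusted threshold, among 278 genes.

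In the miR-146a loss alone and in the double loss, values lay closer to WT than in TIFAB_KO for 7 of the 8 genes, all but Ctsc. In miR-146a_KO against WT, Ctsc and Napsa lay above WT without overlap (2 of 8, background 15.5%), and the median was 0.31, beside 0.093 for all genes. In dKO against WT, Ctsc alone did so (background 8.9%), and the median was 0.22, beside 0.081. In each, 0 of 8 genes passed the adjusted threshold of limma's test (background 0.0843% and 0.0674%) and 2 of 8 had an unadjusted p under 0.05 (background 9.53% and 14.1%), and 0 passed with voom weights. Without WT replicate 3 these medians were 0.068 and -0.0040, and without WT replicate 1 the first was 0.45. Elane was 0.25 ± 0.31 and 0.39 ± 0.29 above WT, Prtn3 0.40 ± 0.27 and 0.022 ± 0.25, and Ctsg 0.22 ± 0.24 and -0.076 ± 0.23, in miR-146a_KO and dKO in turn. Dmkn was 0.024 ± 0.64 above WT in miR-146a_KO and 1.38 ± 0.60 in dKO.

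The 8 genes also differed in how closely they followed each other. Across the 13 libraries, which share depth and preparation with one another, the correlation of each gene with the mean of the other 7 (Pearson's r on standardized log2 CPM) was 0.91 for Elane, 0.89 for Ms4a3, 0.88 for Mpo, 0.88 for Prtn3 and 0.82 for Ctsg. It was 0.78 for Napsa, 0.59 for Dmkn and 0.30 for Ctsc. These correlations contain the group differences described above, and the genes were picked as a set, so they describe the spread within it. Within WT and dKO the granule genes peaked in the same library: WT replicate 1 was the highest WT library for Mpo, Elane, Prtn3, Ctsg and Ms4a3, and dKO replicate 3 was the highest dKO library for the same 5. Within TIFAB_KO and miR-146a_KO they did not: TIFAB_KO replicate 3 was the lowest of its group for Mpo but the highest for Prtn3, Ctsg and Ms4a3, and Ms4a3 peaked in miR-146a_KO replicate 2 where Mpo peaked in replicate 1.

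Among the 8811 genes whose mean log2 CPM reached 3, the 10 whose values were most like the mean of the 8 were Trem3 (r = 0.97), Prom1 (0.92), Fcgr3 (0.91), Itgam (0.91), Gpi1 (0.90), Gfi1 (0.89), Vat1 (0.89), Cst7 (0.88), Dram1 (0.87) and Mapkapk3 (0.87), over 13 libraries. Trem3 is a myeloid activating receptor, Fcgr3 an Fc receptor for IgG, Itgam the integrin CD11b, and Cst7 (cystatin F) an inhibitor of lysosomal cysteine proteases that include cathepsin C. Trem3 had a mean of 2.94 ± 0.55 log2 CPM (SD, n = 3) in WT, 4.07 ± 0.18 in TIFAB_KO (n = 3), 3.45 ± 0.35 in miR-146a_KO (n = 3) and 3.38 ± 0.67 in dKO (n = 4). Prom1, the gene of CD133, had 2.28 ± 0.72, 4.57 ± 0.61, 3.54 ± 0.26 and 3.64 ± 0.96 in the same order. Both had their highest mean in TIFAB_KO, a pattern set by the choice of genes for likeness to the 8.

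**Figure D4:**
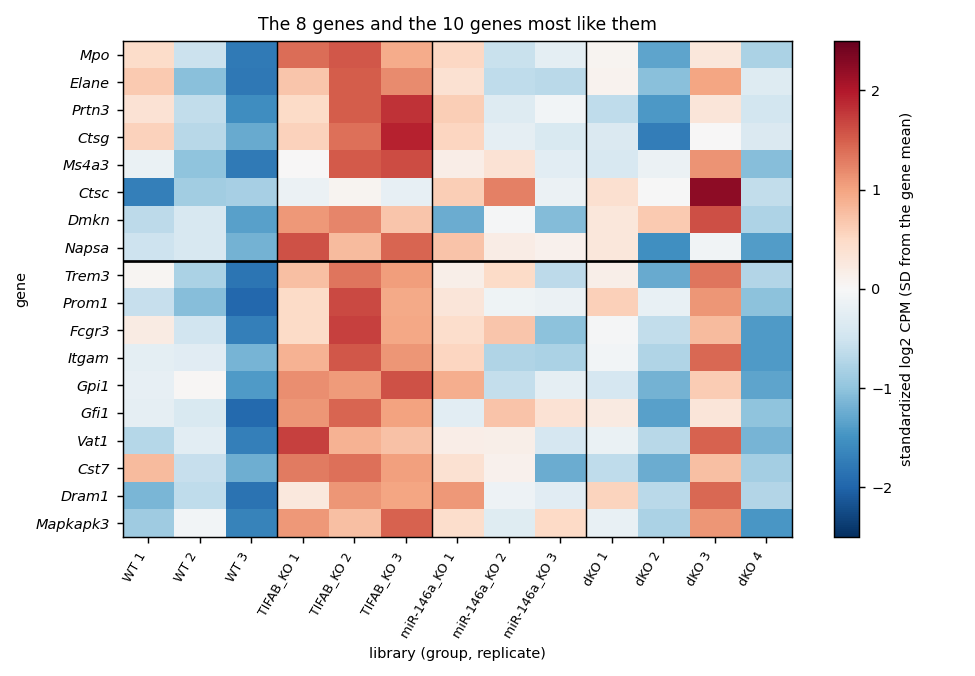
Standardized log2 CPM (colour, in SD from each gene's mean over the 13 libraries) of the 8 genes (above the line) and the 10 genes most like them (below it), with libraries in columns by group. The TIFAB_KO columns are mostly red, WT replicate 3 is blue in all 18 rows, and Ctsc is reddest in dKO replicate 3.

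Other genes of the same biology were read from lists that did not contain the 8. These lists were chosen with earlier results of these data known and share some genes, so nothing is read from their counts. Of 28 tested genes for other granule and lysosomal contents, 0 passed limma's adjusted threshold in TIFAB_KO against WT, 7 had an unadjusted p under 0.05, all higher (5.11% of all genes in either direction), and the median difference was 0.26. The 4 with the largest differences were Clec5a, a myeloid C-type lectin receptor (1.28 ± 0.44), Prss57, a further azurophil serine protease (0.85 ± 0.37), Mgst1, a glutathione transferase (0.83 ± 0.27), and Ctsh, a lysosomal cathepsin (0.72 ± 0.29). Of these, Prss57 overlapped WT, and its difference was 0.40 without WT replicate 3. In dKO against TIFAB_KO the same list had 8 genes lower and 1 higher at an unadjusted p under 0.05 (18.5% of all genes in either direction) and a median of -0.16, with Mgst1 at -0.89 ± 0.25 and Ctsh at -0.69 ± 0.27, both lower in every dKO library. Clec5a, by contrast, was at 0.28 ± 0.41 in dKO against TIFAB_KO and 1.55 ± 0.41 in dKO against WT. The comparison of dKO against TIFAB_KO shares the TIFAB_KO libraries by which the named genes of each list were picked. Lower dKO values of genes picked as high in TIFAB_KO are therefore partly set by the choice.

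Inhibitors of the proteases had a median difference near 0. Of 11 tested inhibitors, 0 passed the adjusted threshold in TIFAB_KO against WT, and the median was 0.027. An unadjusted p under 0.05 was reached by 2, both higher (5.11% of all genes in either direction). Serpinb1a, the intracellular inhibitor of elastase, cathepsin G and proteinase 3, was 0.41 ± 0.18 above WT, with overlapping libraries, and Slpi, the secreted leukocyte protease inhibitor, 0.23 ± 0.29. Cst7 was 0.49 ± 0.19 above WT and -0.54 ± 0.18 in dKO against TIFAB_KO, without overlap in either. Serpina3g was 0.62 ± 0.36 above WT in TIFAB_KO and 0.99 ± 0.36 in miR-146a_KO.

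Among 26 tested transcription factors of granulocytes and monocytes, 0 passed the adjusted threshold in TIFAB_KO against WT, and the median was 0.12. At an unadjusted p under 0.05, 3 were higher and 2 lower (5.11% of all genes in either direction). Gfi1, the repressor that directs progenitors to neutrophils, had means of 3.24 ± 0.61 log2 CPM in WT (n = 3), 4.55 ± 0.15 in TIFAB_KO (n = 3), 3.96 ± 0.31 in miR-146a_KO (n = 3) and 3.49 ± 0.55 in dKO (n = 4). Its difference was 1.31 ± 0.32 in TIFAB_KO against WT and -1.06 ± 0.30 in dKO against TIFAB_KO, with no overlap in either, and it is one of the 10 genes most like the 8. Klf4, a monocyte factor, was at -0.86 ± 0.28 in TIFAB_KO against WT. It was lower in every library, but only by a small step (6.094 against 6.105 log2 CPM). It was also at -0.92 ± 0.26 in dKO against WT, lower in every library, and at -0.69 ± 0.28 in miR-146a_KO against WT, with overlap. In dKO against TIFAB_KO Klf4 was at -0.067 ± 0.26. Jun at -0.60 ± 0.23 and Ets1 at 0.52 ± 0.29 in TIFAB_KO against WT overlapped WT. Jun is also among the immediate early and heat shock genes summed below.

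Of 28 tested surface and signalling genes of granulocyte-monocyte progenitors, 0 passed the adjusted threshold in TIFAB_KO against WT, and the median was 0.33. An unadjusted p under 0.05 was reached by 8, all higher (5.11% of all genes in either direction). Fcgr3 was 0.86 ± 0.30 and Igsf6 0.83 ± 0.25 above WT, both without overlap. Ly6c2, a monocyte antigen, was 1.03 ± 0.41 above WT and Cd33 was at -0.88 ± 0.47, both with overlap. In miR-146a_KO and dKO in turn, Igsf6 was 0.72 ± 0.25 and 0.58 ± 0.23 above WT, and Ly6c2 0.78 ± 0.41 and 0.92 ± 0.38. The Cd33 difference came from TIFAB_KO replicate 3: its 3 TIFAB_KO values were 4.99, 4.29 and 2.06 log2 CPM, and without that library the difference was -0.018. In dKO against TIFAB_KO this list had 5 genes lower and 0 higher at an unadjusted p under 0.05, against 18.5% of all genes in either direction, and a median of -0.17. There Fcgr3 was at -0.69 ± 0.28, Igsf6 at -0.25 ± 0.23, Ly6c2 at -0.11 ± 0.38 and Cd33 at 0.55 ± 0.44.

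Relatives of the 8 genes by family or by position were less uniform. Of 16 tested other serine proteases, cathepsins and peroxidases, 3 had an unadjusted p under 0.05 in TIFAB_KO against WT, all higher (median 0.26, 0 past the adjusted threshold). These 3 were Epx, Gzmb and Ctsh. Ctsh is also in the granule list, and Epx and Gzmb are also mast cell, basophil and eosinophil markers, so the lists are not separate. In dKO against TIFAB_KO 5 did, all lower (median -0.43). The shares of all genes in either direction were 5.11% and 18.5% in these comparisons. Epx, the eosinophil peroxidase, was 1.42 ± 0.53 above WT in TIFAB_KO and 1.28 ± 0.53 in miR-146a_KO. Gzmb, the granzyme 156 kb from Ctsg, was 1.01 ± 0.45 above WT in TIFAB_KO and 1.68 ± 0.45 in miR-146a_KO, where Ctsg was at 0.22. Mcpt8, a basophil protease gene 14.608 kb from Ctsg, was 0.60 ± 0.44 above WT in TIFAB_KO without overlap and at 0.061 ± 0.41 in dKO against TIFAB_KO. Prss34, another basophil protease, was 0.92 ± 0.49 above WT in TIFAB_KO, with overlap.

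Near Mpo, Lpo (lactoperoxidase), 2.015 kb away, was 1.18 ± 0.61 above WT with overlap and at -1.39 ± 0.57 in dKO against TIFAB_KO, lower in every library, at a mean level of 0.41 log2 CPM. Near Elane and Prtn3, Med16 was at -0.16 ± 0.18 and Ptbp1 at 0.076 ± 0.16 in TIFAB_KO against WT, both with overlap. Ms4a2, the mast cell and basophil receptor chain 5.777 kb from Ms4a3, was at 0.12 ± 0.23, against 1.21 for Ms4a3. Of 6 tested Ms4a genes 0 had an unadjusted p under 0.05 in TIFAB_KO against WT, and Ms4a6b and Ms4a6c were at 0.32 ± 0.36 and 0.25 ± 0.19. Beside Dmkn, Sbsn (suprabasin), a skin gene 7.622 kb away, was 0.99 ± 0.67 above WT in TIFAB_KO, at a mean of 0.20 log2 CPM. Its libraries did not overlap there, but only by a small step (0.33 against 0.27 log2 CPM). Its means were -0.20 in WT, -0.29 in miR-146a_KO, 0.79 in TIFAB_KO and 0.42 in dKO. Like Dmkn, Sbsn thus passed the filter only through TIFAB_KO and dKO, so it had to differ between groups to be listed. Ffar2, a fatty acid receptor on the other side, was 0.76 ± 0.35 above WT in TIFAB_KO with overlap.

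Markers of some other cells in the sort also differed between the groups, in TIFAB_KO and in miR-146a_KO. The summed CPM of 22 erythroid markers was 2996 to 3736 in WT and 1940 to 2334 in TIFAB_KO, 2150 to 2635 in miR-146a_KO and 2093 to 3373 in dKO, with Hba-a1, Hba-a2, Hbb-bt and Hbb-bs listed at 0 reads everywhere. Of 17 tested erythroid markers, 17 were lower in TIFAB_KO than in WT and 15 were higher in dKO than in TIFAB_KO, with 0 past the adjusted threshold. Of all genes tested, 47.6% were above 0 in the first comparison and 60.1% in the second. Car1, the most abundant, was at 1543 ± 203 CPM in WT (n = 3), 924 ± 138 in TIFAB_KO (n = 3), 1003 ± 148 in miR-146a_KO (n = 3) and 1325 ± 314 in dKO (n = 4). Since CPM is a share of the library, erythroid and granule genes can only be read against each other.

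Sums of 27 late neutrophil markers were 574 to 678 CPM in WT, 735 to 954 in TIFAB_KO, 631 to 806 in miR-146a_KO and 538 to 1489 in dKO, and 20 of 20 tested ones were higher in TIFAB_KO than in WT. In dKO against TIFAB_KO 11 of these 20 were higher and 9 lower, a median of 0.057, near the 60.1% above 0 and the median of 0.092 of all genes. Sums of 22 mast cell, basophil and eosinophil markers were 636 to 919 in WT, 893 to 1341 in TIFAB_KO, 912 to 1119 in miR-146a_KO and 573 to 1470 in dKO (Tpsab1 at 0 reads), and those of 21 macrophage and dendritic markers 344 to 460, 495 to 631, 519 to 605 and 429 to 915. Sums of 20 stem and multipotent markers overlapped, at 1555 to 1788 in WT and 1290 to 1724 in TIFAB_KO, as did those of 18 megakaryocyte markers, at 1363 to 1646 and 1176 to 1456. Those of 14 B cell markers were 47.6 to 56.5 in WT, 31.6 to 32.8 in TIFAB_KO, 46.2 to 59.7 in miR-146a_KO and 21.4 to 55.5 in dKO. Those of 15 T and NK markers were 188 to 257, 251 to 330, 196 to 232 and 205 to 309 in the same order. Nkg7 made up most of the T and NK sum, with means of 196 of 214 CPM in WT and 265 of 283 in TIFAB_KO. The summed CPM of 18 immediate early and heat shock genes, which rise when cells are handled, was 10560 to 15464 in WT, 9021 to 11219 in TIFAB_KO, 14630 to 17781 with miR-146a lost and 11261 to 14127 with both lost. In this sum every dKO library thus lay above every TIFAB_KO library, though only by a small step (11261 against 11219). Among the most abundant of these genes, Hsp90aa1 was also without overlap between dKO and TIFAB_KO, while Hspa8 and Jun overlapped. The part of cell composition, of handling and of ribosomal RNA in the values of the 8 genes was not tested.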

How the data were processed

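LK cell RNA went through Ovation RNA-Seq System v2 amplification and was sequenced as Nextera XT libraries, per the labels' protocols. TopHat, featureCounts, limma and mm10 are named in the submitters' processing notes; versions and strand are not given there or in the labels. The authors deposited 1 table of log2 CPM in limma's voom form, with 0.5 reads added per gene and 1 to each total: 100% of its values gave whole reads within 0.01, which gave the depths. The members and gene lists were chosen with earlier results of these data known.

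The main fit was limma 3.58.1 (R 4.3.3) on the deposited log2 CPM of 13 libraries, with 4 group means, a variance trend, 11867 genes with a mean of at least 0 and Benjamini-Hochberg adjustment at 0.05; SE are its moderated values (9 residual degrees of freedom, 9.53 prior). Tables were made with Python 3.11.15, pandas 2.3.3 and numpy 2.4.6. Alternatives changed pseudocount, scaling, filter, weights, trend and libraries, and the code was tested on simulated data. Named beside the 8: the 10 genes most like them, nearest neighbours, and per list the up to 4 genes (mean of at least 3) furthest from WT in TIFAB_KO and any called, of which there were none. Coordinates, exons and UTRs are those of GENCODE M21. Of the 24062 rows, 22683 matched 1 gene by symbol. Same-numbered libraries did not deviate together.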

Additional observations from a re-analysis of the deposited data

How the results depend on the processing

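The median differences of the 8 genes kept their sign under every scaling, pseudocount and weighting tried, and moved by less than 1 SD between replicates. Leaving out 1 library at a time gave 0.73 to 1.26 in TIFAB_KO against WT, 0.068 to 0.45 in miR-146a_KO against WT, -0.0040 to 0.36 in dKO against WT, -0.28 to -0.0060 in dKO against miR-146a_KO, -0.93 to -0.58 in dKO against TIFAB_KO and -1.25 to -0.81 in the interaction. With TMM scaling the dKO against WT median was 0.12 and without TIFAB_KO replicate 3 and dKO replicate 3 it was 0.078, against 0.22. Of 792 single-gene values under alternatives, 40 had the other sign and 4 moved by over 1 SD. These were Dmkn with log2(CPM + 1) in TIFAB_KO against WT (1.18), and Mpo with quantile normalization in TIFAB_KO against WT (0.19), dKO against TIFAB_KO (0.00) and the interaction (-0.19), which sets a gene of the same rank in nearly every library to nearly the same value.

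Counts of genes called, which the 8 are set beside, depended on the setting. In TIFAB_KO against WT 2 genes became 0 without the filter, without the trend or with quantile normalization, and 1 with TMM, with totals without Rn45s and the 8 genes, or with only those groups. Without the trend the counts were 5 in miR-146a_KO against WT (10), 4 in dKO against WT (8) and 3 in dKO against miR-146a_KO (6), and with only the groups compared 89 in miR-146a_KO against WT and 13 in dKO against WT. Without the filter dKO against TIFAB_KO had 7 genes (4). With the replicate block the counts were 281 in dKO against WT, 3 in dKO against miR-146a_KO and 146 in dKO against TIFAB_KO, and no member was called. Number 4 occurs in dKO alone, so the block leaves that library out, and same-numbered libraries did not deviate together (r from -0.20 to 0.23, median -0.023, over 18 pairs). In 4 of 13 libraries the best match in another group had the same number.

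Leaving out 1 library at a time gave 0 to 44 genes in TIFAB_KO against WT, 4 to 12 in miR-146a_KO against WT, 4 to 336 in dKO against WT (336 without dKO replicate 4), 2 to 5 in dKO against miR-146a_KO, 3 to 278 in dKO against TIFAB_KO and 0 to 1 in the interaction. Members called ranged from 0 to 2 in TIFAB_KO against WT and in dKO against TIFAB_KO, and were 0 in the other 4. The value of Cd33 without TIFAB_KO replicate 3 was an alternative chosen after seeing the data. The number of libraries and, for Dmkn, reads limit the precision.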
